A study of Mus musculus with 2 samples.

Results

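The cytochrome P450 genes of families 1 to 4 were described in epididymal fat of A/J-12SM and A/J mice. The members were all genes whose symbol in the platform annotation is Cyp, a digit from 1 to 4 and a letter, so that families such as Cyp11, Cyp17, Cyp27 and Cyp39 were left out. This gave 80 of 22180 genes, in 22 subfamilies, and 5 of the 80 are pseudogenes in the RefSeq annotation. A/J-12SM mice are consomic, with chromosome 12 of SM/J on an otherwise A/J genome, and A/J mice are the recipient strain. Males of both strains, 6 weeks old at the start, ate a high-fat diet during 7 weeks and fasted 4 h before the tissue was taken. RNA of 3 mice was pooled for each strain and hybridized to 1 Affymetrix mouse whole-transcript array, so each strain has 1 value per gene and no replicate. No difference below has an error or a p-value, and "higher" or "lower" is said of these 2 arrays. None of the 80 members lies on chromosome 12, so by the design of the cross both pools carry A/J alleles of every member. Genotypes outside chromosome 12 were not checked here.

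P450 enzymes are haem proteins, most of them in the endoplasmic reticulum, that insert an oxygen atom into lipophilic substrates with electrons from P450 oxidoreductase. Families 1 to 3 are best known for oxidizing drugs, carcinogens and steroids in the liver, and many of their genes are induced by foreign compounds through the receptors AHR, CAR and PXR. Family 4 hydroxylates the far end of fatty acids and of eicosanoids. In mice some subfamilies have expanded into clusters of similar neighbouring genes, and several of these genes are expressed mainly in 1 sex.

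More of these genes were higher than lower in A/J-12SM fat over all levels, but not among the 10 that reached a level of 6 on both arrays. Levels are log2 values from RMA, a difference is A/J-12SM minus A/J, and a gene was counted when its difference was above 0.75 or below -0.75, which is the limit the study uses (above 1.68-fold or below 0.595-fold). Of the 80 members, 19 (23.8%) were above 0.75, where 2.86% of all genes were, and 4 (5.0%) were below -0.75, where 4.28% of all genes were. The other 57 lay between these limits. The median difference of the members was 0.30, and that of all genes was 0.03. In all, 54 members (67.5%) had a difference above 0, as did 53.6% of all genes. Over all levels the excess over the background was on the higher side, while the share on the lower side was near the background. In pooled tissue RNA, a higher number of cells of a type and more RNA per cell cannot be told apart.

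**Figure D1:**
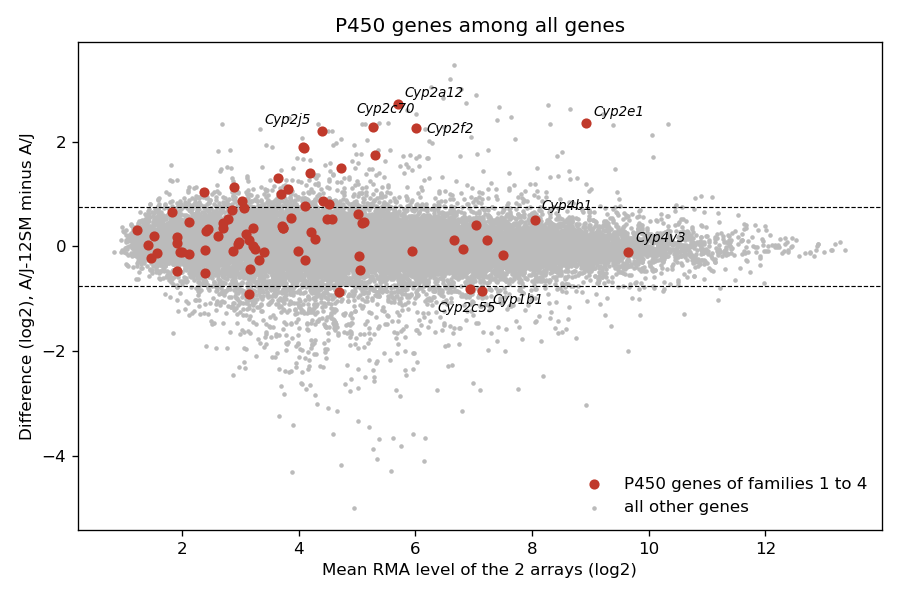
Difference in level (log2, A/J-12SM minus A/J) against the mean level of the 2 arrays (log2) for each P450 gene of families 1 to 4 (red) and each other gene (grey), with dashed lines at 0.75 and -0.75. Of the red points, 19 lie above the upper line and 4 below the lower one.

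Most members had low levels. A level of 6 on the brighter array was reached by 14 members, 10 of them on both arrays, 4 on the A/J-12SM array alone and none on the A/J array alone. Of the 10 members at 6 or more on both arrays, 1 (Cyp2e1) was above 0.75 and 2 (Cyp1b1 and Cyp2c55) were below -0.75, with a median difference of 0.03. Among all genes at that level on both arrays, 1.31% were above and 2.02% below. Of the 14 members at 6 on the brighter array, 5 were above 0.75 and 2 below -0.75 (2.19% and 3.91% of all genes at that level). However, 4 of these 5 reached 6 on the A/J-12SM array alone and so entered through the array where they were high, and the count of 5 is a description that supports no excess. Of the 66 members below 6 on both arrays, 14 (21.2%) were above 0.75 and 2 (3.03%) below -0.75, where 3.29% and 4.51% of all such genes were. No detection call was used, so dim genes may lie at background, where a difference has no certain size. Levels of different genes come from different probes and are not compared with one another.

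The higher members with a level of 6 on at least 1 array were Cyp2e1, Cyp2a12, Cyp2c70, Cyp2f2 and Cyp2d26. Cyp2e1, which oxidizes ethanol, acetone and acetaminophen, was at 10.11 in A/J-12SM fat and 7.75 in A/J fat, a 5.15-fold difference. It was the sole higher member with a level above 6 on both arrays. Cyp2a12, a liver enzyme that hydroxylates steroids and bile acids, had levels of 7.07 in A/J-12SM and 4.34 in A/J fat (6.61-fold). Cyp2c70, which forms the muricholic acids of mouse bile, had levels of 6.41 in A/J-12SM and 4.13 in A/J fat (4.88-fold). Cyp2f2, known for activating naphthalene in club cells of the airway and present in the liver too, had levels of 7.14 in A/J-12SM and 4.88 in A/J fat (4.77-fold). A second, dimmer probe set of Cyp2f2 had 4.90 on the A/J-12SM array and 3.61 on the A/J array, so both of its probe sets were above 0.75. Cyp2d26 had levels of 6.17 in A/J-12SM and 4.43 in A/J fat (3.35-fold). For the last 4 of these genes the A/J level was below 6.

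**Figure D2:**
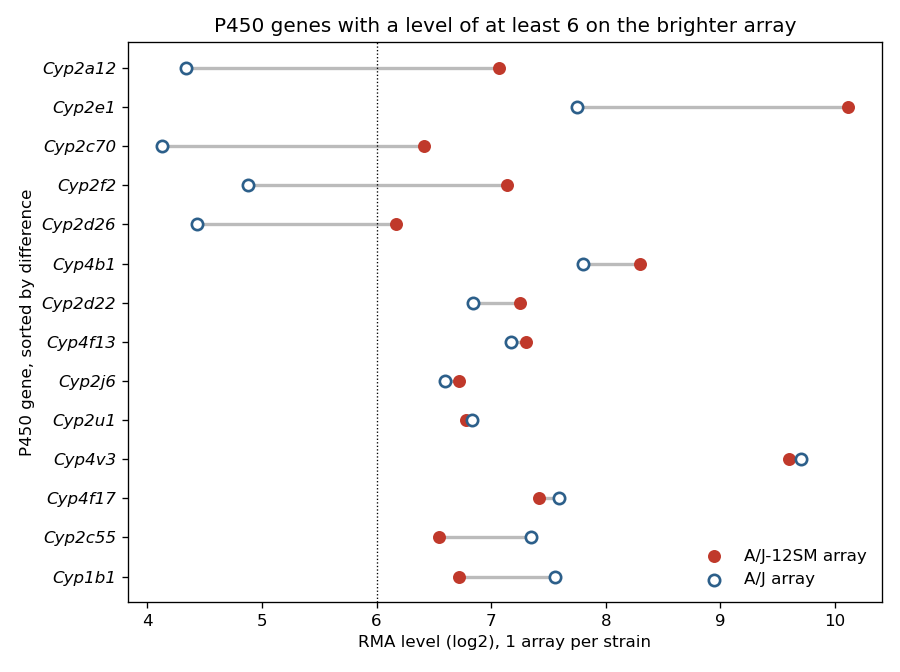
Levels (RMA, log2) of the 14 P450 genes that reached 6 (dotted line) on the brighter array, with filled red points for the A/J-12SM array and open blue points for the A/J array, 1 array per strain. Cyp2a12, Cyp2e1, Cyp2c70, Cyp2f2 and Cyp2d26 have the A/J-12SM point at least 1.74 to the right, and in Cyp2c55 and Cyp1b1 it lies 0.81 and 0.84 to the left.

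Markers of hepatocytes were higher in A/J-12SM fat as well. Of 18 listed genes 17 were measured, all 17 had a difference above 0, and 14 of the 17 were above 0.75, with a median difference of 1.94. Their levels ran from 4.87 to 10.92 in A/J-12SM fat, against 3.60 to 9.21 in A/J fat, and 5 of them were above 6 in both. The levels summed on the linear scale were 5565 for A/J-12SM and 1402 for A/J fat, a ratio of 3.97. The differences were largest for Cps1 (3.20), Fgg (2.84), Tat (2.73) and Ahsg (2.62). The part of these markers in the P450 differences was not tested. Adipocyte markers matched the labelled tissue, since all 11 measured were above 6 on both arrays, with a median difference of 0.29 and 2 above 0.75 (Slc2a4 1.03 and Adipoq 0.93).

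Promoter windows of these 5 higher members and of Cyp1b1 and Cyp2c55, the lower members described next, are printed to show which known motif letters they hold. The windows run from 250 bases before to 50 bases after the RefSeq start site (GRCm38.p6), each 5′ to 3′ on the strand of its gene. RefSeq windows were given for 62 of the 80 members. The capitals mark AGGTCA, 1 arm of nuclear receptor sites, in Cyp2c70 and Cyp2f2, ATTAAC, the reverse complement of GTTAAT, 1 arm of the HNF1 site, in Cyp2d26, and CACGC, the reverse complement of GCGTG, the core of the AHR element, in Cyp1b1. Cyp2e1, Cyp2a12 and Cyp2c55 held none of the 3 motifs and have no capitals. No matches overlapped in these windows, each of which had at most 1.
Cyp2e1 (chr7:140763569-140763868, plus strand): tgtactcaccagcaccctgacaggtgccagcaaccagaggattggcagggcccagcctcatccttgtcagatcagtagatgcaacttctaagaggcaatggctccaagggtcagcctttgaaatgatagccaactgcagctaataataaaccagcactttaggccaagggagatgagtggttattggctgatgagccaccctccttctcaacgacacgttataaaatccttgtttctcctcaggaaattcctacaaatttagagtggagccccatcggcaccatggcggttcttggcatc
Cyp2a12 (chr7:27028840-27029139, plus strand): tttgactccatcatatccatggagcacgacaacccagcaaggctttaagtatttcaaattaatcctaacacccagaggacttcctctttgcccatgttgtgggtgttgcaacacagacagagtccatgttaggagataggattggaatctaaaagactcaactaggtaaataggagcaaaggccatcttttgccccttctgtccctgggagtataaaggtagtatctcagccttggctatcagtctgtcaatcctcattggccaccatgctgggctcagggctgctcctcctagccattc
Cyp2c70 (chr19:40187237-40187536, minus strand): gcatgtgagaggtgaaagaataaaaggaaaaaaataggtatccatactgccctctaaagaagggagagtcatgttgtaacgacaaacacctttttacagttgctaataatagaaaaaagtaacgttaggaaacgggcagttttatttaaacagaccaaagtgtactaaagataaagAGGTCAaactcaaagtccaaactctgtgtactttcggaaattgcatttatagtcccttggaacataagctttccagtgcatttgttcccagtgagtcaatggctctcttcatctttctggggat
Cyp2f2 (chr7:27119705-27120004, plus strand): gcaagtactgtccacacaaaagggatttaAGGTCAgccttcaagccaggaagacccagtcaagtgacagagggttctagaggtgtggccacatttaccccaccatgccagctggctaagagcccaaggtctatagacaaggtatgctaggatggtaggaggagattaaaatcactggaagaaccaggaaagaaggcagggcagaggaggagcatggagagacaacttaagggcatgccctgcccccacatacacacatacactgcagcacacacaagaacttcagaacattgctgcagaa
Cyp2d26 (chr15:82794196-82794495, minus strand): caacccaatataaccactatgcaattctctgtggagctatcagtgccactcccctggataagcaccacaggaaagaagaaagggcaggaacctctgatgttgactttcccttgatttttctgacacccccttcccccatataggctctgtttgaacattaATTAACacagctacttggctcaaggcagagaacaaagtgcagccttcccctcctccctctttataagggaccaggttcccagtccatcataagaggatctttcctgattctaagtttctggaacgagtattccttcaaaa
Cyp1b1 (chr17:79715012-79715311, minus strand): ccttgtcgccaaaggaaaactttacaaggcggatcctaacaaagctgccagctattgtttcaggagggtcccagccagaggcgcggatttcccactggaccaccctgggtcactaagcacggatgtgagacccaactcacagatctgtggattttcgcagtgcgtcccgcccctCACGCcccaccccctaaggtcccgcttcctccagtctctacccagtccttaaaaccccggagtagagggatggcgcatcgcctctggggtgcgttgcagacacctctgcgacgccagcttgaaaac
Cyp2c55 (chr19:39006769-39007068, plus strand): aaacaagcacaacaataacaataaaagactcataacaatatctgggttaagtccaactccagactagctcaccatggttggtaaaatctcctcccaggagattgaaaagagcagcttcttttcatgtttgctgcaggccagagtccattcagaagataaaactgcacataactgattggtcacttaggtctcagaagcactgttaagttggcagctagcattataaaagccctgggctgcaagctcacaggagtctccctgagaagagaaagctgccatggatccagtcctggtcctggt

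Searched on both strands, AGGTCA was in 7 of the 16 windows (43.8%) of the higher members, in 13 of 49 windows (26.5%) of the members within the limits, and in 16.3% of all 32851 windows. GCGTG was in none of the 16 windows of the higher members, in 12 of 49 (24.5%) of those within the limits, and in 32.4% of all windows. It was in 3 of the 4 windows of the lower members, namely that of Cyp1b1 and both of Cyp2j13. AGGTCA and GTTAAT were in 0 of these 4 windows. Windows were given for 15 of the 19 higher and 3 of the 4 lower members. GTTAAT was in 1 of the 16 windows of the higher members, in 8 of 49 within the limits, and in 7.1% of all windows. Members of a subfamily descend from 1 gene, so their windows are not independent, and a match is a stretch of letters and not a binding site.

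The 2 lower members with a level above 6 had it on both arrays. Cyp1b1, an AHR target of stromal cells that hydroxylates oestrogens and retinoids, was at 6.72 in A/J-12SM fat and 7.56 in A/J fat, 1.79-fold higher in A/J. Cyp2c55, known from the colon and as a hydroxylase of arachidonic acid, had levels of 6.54 in A/J-12SM and 7.35 in A/J fat (1.75-fold higher in A/J). A second probe set of Cyp2c55 was at low levels, 2.99 on the A/J-12SM array and 3.22 on the A/J array, and with the mean of both the difference was -0.52, inside the limits. Fibroblast and progenitor markers had a median difference of -0.10 with none of the 6 past the limits. Macrophage markers had one of -0.41, with 3 of 9 below -0.75 and none above 0.75, and summed linear levels of 6800 in A/J-12SM and 8932 in A/J fat. The part of these markers in the levels of Cyp1b1 and Cyp2c55 was not tested.

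The remaining 7 members that reached a level of 6 did so on both arrays and stayed within the limits. Cyp4b1, an enzyme of fatty acids and of furans known from the lung, had levels of 8.30 in A/J-12SM and 7.80 in A/J fat. Cyp4v3, the mouse counterpart of the human fatty acid hydroxylase gene CYP4V2, had 9.60 in A/J-12SM and 9.70 in A/J fat. Cyp2d22, which is regarded as the counterpart of human CYP2D6, had 7.25 in A/J-12SM and 6.84 in A/J fat. Thus none of these 3 reached the limit, with differences of 0.50, -0.10 and 0.41. Cyp4f13 and Cyp4f17 belong to the subfamily that degrades leukotrienes. Cyp4f13 had levels of 7.30 in A/J-12SM and 7.17 in A/J fat, and Cyp4f17 had 7.42 in A/J-12SM and 7.59 in A/J fat. Cyp2j6, an epoxygenase of arachidonic acid, had 6.72 in A/J-12SM and 6.60 in A/J fat. Cyp2u1, a hydroxylase of long-chain fatty acids, had 6.78 in A/J-12SM and 6.83 in A/J fat. The differences of these 4 genes lay between -0.17 and 0.13.

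By family, the higher genes were mostly in family 2, which holds 50 of the 80 members. Of its 50 members, 15 were above 0.75 and 2 below -0.75, with a median difference of 0.39. A level of 6 on both arrays was reached by 5 of the 50, with Cyp2e1 above 0.75 and Cyp2c55 below -0.75. Another 4 reached it on the A/J-12SM array alone. Besides Cyp2e1, the higher genes of family 2 were all below 6 on the A/J array. Over all levels, 2.86% of all genes were above 0.75 and 4.28% below -0.75. Family 1 had 1 of 3 above and 1 below, family 3 had none of 7 past either limit, and family 4 had 3 of 20 above and 1 below. The medians of families 3 and 4 were 0.29 and 0.04.

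**Figure D3:**
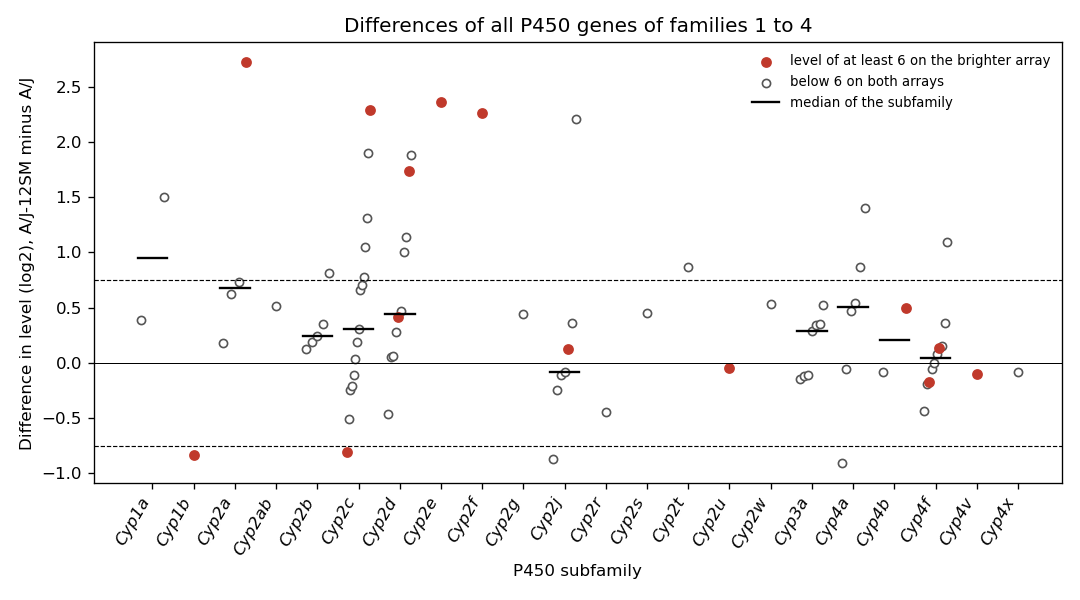
Difference in level (log2, A/J-12SM minus A/J) of each of the 80 P450 genes by subfamily, with filled red points for genes that reached a level of 6 on the brighter array, open points for the others, short lines for the median of subfamilies with more than 1 gene, and dashed lines at 0.75 and -0.75. All points of Cyp2a and Cyp2b lie above 0, and all of Cyp3a lie between -0.15 and 0.52.

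In family 1, Cyp1a2 and Cyp1a1 are neighbours on chromosome 9 and both are targets of AHR. Cyp1a2, which hepatocytes express without an inducer, had levels of 5.48 in A/J-12SM and 3.98 in A/J fat (2.82-fold). Cyp1a1, which is expressed mainly after induction, had 3.92 in A/J-12SM and 3.52 in A/J fat and was not past the limit. The direction of Cyp1a2 was thus opposite to that of Cyp1b1.

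Positions followed the known clusters, with 70 members in 8 groups of neighbouring genes. On chromosome 7, all 13 clustered genes of the subfamilies Cyp2a, Cyp2b, Cyp2f, Cyp2g, Cyp2s and Cyp2t had differences above 0, from 0.12 to 2.72, and 4 were above 0.75. Of all genes, 53.6% were above 0 and 2.86% above 0.75, and of all genes below 6 on both arrays, 58.2% were above 0. Of the 13, 0 reached a level of 6 on both arrays and 2 did so on the A/J-12SM array alone. Besides Cyp2a12 and Cyp2f2, which stand next to each other in the order of these genes, the higher ones were Cyp2t4 (3.46 in A/J-12SM and 2.59 in A/J fat) and Cyp2b9, expressed mainly in livers of females (4.92 in A/J-12SM and 4.11 in A/J fat). Cyp2a4, a steroid hydroxylase of female liver, lay just inside the limit at 0.73. Cyp2a22 differed by 0.62 and Cyp2a5, the coumarin hydroxylase, by 0.18 at levels of 2.01 in A/J-12SM and 1.83 in A/J fat. The other 4 Cyp2b genes ranged from 0.12 to 0.35, with the CAR target Cyp2b10 at 0.12. Cyp2s1, known from epithelia, differed by 0.45 and Cyp2g1, known from the olfactory mucosa, by 0.44.

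The Cyp2c subfamily had 15 members, 14 of them in a cluster on chromosome 19, with 5 above 0.75 and 1 below -0.75. Of all genes, 2.86% were above and 4.28% below, and of all genes below 6 on both arrays, 3.29% and 4.51% were. Of the 15, Cyp2c55 alone reached a level of 6 on both arrays, and Cyp2c70 did so on the A/J-12SM array alone. Besides Cyp2c70, the higher genes were Cyp2c29 (5.03 in A/J-12SM and 3.13 in A/J fat), Cyp2c54 (4.30 in A/J-12SM and 2.98 in A/J fat), Cyp2c38 (2.89 in A/J-12SM and 1.84 in A/J fat) and Cyp2c39 (4.50 in A/J-12SM and 3.72 in A/J fat). Cyp2c29 and Cyp2c54 are liver epoxygenases of arachidonic acid, and Cyp2c39 oxidizes retinoic acid. A second probe set of Cyp2c29 had 2.01 on the A/J-12SM array and 2.11 on the A/J array, so its probe sets disagreed. The lower gene, Cyp2c55, stands at the start of the cluster and Cyp2c70 at its end, so both directions occurred within 1 cluster. Cyp2c65 and Cyp2c66, its neighbours, differed by 0.19 and 0.03. The 9 members within the limits ranged from -0.51 (Cyp2c37) to 0.70 (Cyp2c68) and did not exceed a level of 3.98 in A/J-12SM or 4.23 in A/J fat, both reached by Cyp2c23.

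The Cyp2d cluster on chromosome 15 had 9 of 10 genes with a difference above 0 and 4 above 0.75. These were Cyp2d26, Cyp2d13 (5.04 in A/J-12SM and 3.15 in A/J fat), Cyp2d9 (3.45 in A/J-12SM and 2.31 in A/J fat) and Cyp2d10 (4.20 in A/J-12SM and 3.19 in A/J fat). Cyp2d9 is a testosterone hydroxylase of male liver, and Cyp2d13 is annotated as a transcribed pseudogene. The 5 dim members within the limits ranged from -0.46 (Cyp2d12) to 0.47 (Cyp2d37-ps). Of the 10 genes, Cyp2d22 alone reached a level of 6 on both arrays, so none of the 4 higher ones did. Of all genes, 53.6% were above 0 and 2.86% above 0.75, and of all genes below 6 on both arrays, 58.2% and 3.29% were.

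In the Cyp2j cluster on chromosome 4, the first and the last gene differed in opposite directions. Cyp2j5, an epoxygenase of kidney and liver, had levels of 5.50 in A/J-12SM and 3.29 in A/J fat (4.63-fold). Cyp2j13 had 4.25 in A/J-12SM and 5.12 in A/J fat, 1.82-fold higher in A/J. The 5 genes between them ranged from -0.25 to 0.36, among them Cyp2j9, which reached 5.90 in A/J-12SM and 5.98 in A/J fat. All 6 kidney tubule markers were above 0, with a median difference of 0.22 and none past the limits. Their levels did not exceed 4.52 in A/J-12SM and 4.31 in A/J fat. Of the 17 hepatocyte markers, 14 were above 0.75, with a median of 1.94. The part of either list in the level of Cyp2j5 was not tested.

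**Figure D4:**
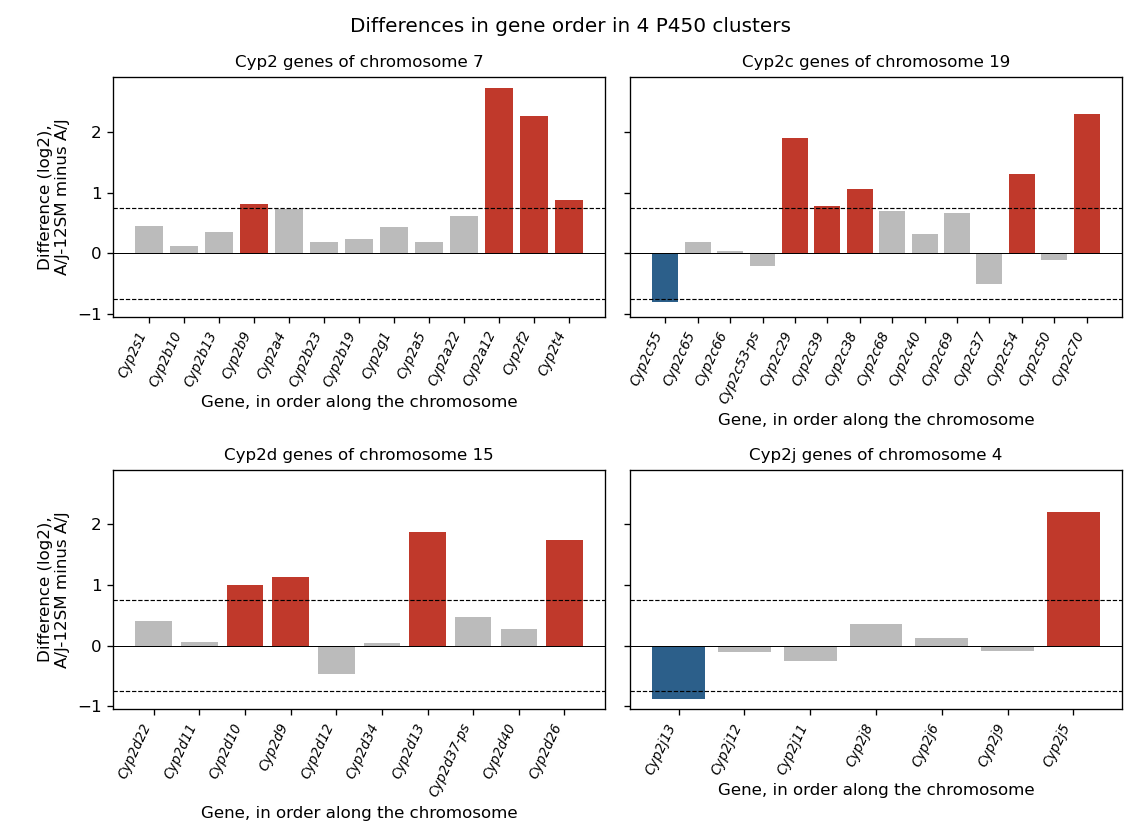
Difference in level (log2, A/J-12SM minus A/J) of P450 genes in their order along the chromosome in 4 clusters, with red bars above 0.75, blue bars below -0.75, grey bars between, and dashed lines at both limits. All 13 bars of the chromosome 7 cluster are above 0, though 0 of these genes reached a level of 6 on both arrays. The first genes of the Cyp2c and Cyp2j clusters, Cyp2c55 and Cyp2j13, are at -0.81 and -0.87. Their last genes, Cyp2c70 and Cyp2j5, are at 2.29 and 2.21.

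Cyp2e1 stands alone on chromosome 7, away from the cluster, and the other single members of family 2 stayed within the limits. Cyp2r1, the vitamin D 25-hydroxylase, had levels of 4.83 in A/J-12SM and 5.28 in A/J fat. Cyp2w1 and Cyp2ab1 differed by 0.53 and 0.51, both at levels below 5 on either array.

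The Cyp3a subfamily, which includes the main drug-oxidizing enzymes of the liver, had no member past the limits and no level above 3.90 in A/J-12SM or 3.55 in A/J fat. Cyp3a11, the PXR target, reached these values with a difference of 0.35. Cyp3a13, known from the intestine, had 3.05 in A/J-12SM and 2.52 in A/J fat, the largest difference of the 7 members. Cyp3a25 and Cyp3a44 differed by 0.34 and 0.29. Cyp3a16, Cyp3a57 and Cyp3a59 had differences from -0.15 to -0.11. The difference between Cyp3a and the Cyp2 subfamilies was not tested.

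In family 4, the fatty acid hydroxylases of the Cyp4a subfamily went in both directions at low levels. Cyp4a14, a target of PPAR-alpha in liver, had levels of 4.89 in A/J-12SM and 3.48 in A/J fat (2.65-fold). Cyp4a12b, a close copy of the male-expressed 20-HETE synthase gene Cyp4a12a, had 4.85 in A/J-12SM and 3.98 in A/J fat, and Cyp4a12a itself differed by 0.54. Cyp4a31 had 2.70 in A/J-12SM and 3.61 in A/J fat. Cyp4a29 and Cyp4a30b differed by 0.47 and -0.06. These copies are similar in sequence, and how far their probes detect one another was not tested. Of the 10 Cyp4f genes, Cyp4f15 alone was past the limits (4.36 in A/J-12SM and 3.27 in A/J fat). Cyp4f18, which degrades leukotriene B4 in neutrophils, had 4.94 in A/J-12SM and 5.13 in A/J fat. Cyp4f14, a liver enzyme that also acts on leukotriene B4, had 2.95 in A/J-12SM and 3.39 in A/J fat. Of 5 neutrophil markers, 2 were below -0.75, and the median was 0.01. The other Cyp4f genes that stayed below a level of 6 differed by -0.06 to 0.36. Cyp4x1 and the pseudogene Cyp4b1-ps2 each differed by -0.08.

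The P450 families left out by the rule were counted in the same way. Of 18 genes, 2 (11.1%) were above 0.75 and 3 (16.7%) below -0.75, where 2.86% and 4.28% of all genes were. Their median difference was 0.05, and 3 of the 18 reached a level of 6 on both arrays. Cyp7a1 and Cyp8b1, which make bile acids in hepatocytes, were the 2 higher ones, with levels of 4.13 and 4.98 in A/J-12SM and of 3.17 and 4.09 in A/J fat, named after their values were seen. Cyp17a1, an enzyme of androgen synthesis, was at 3.44 in A/J-12SM fat and 7.73 in A/J fat. Cyp11a1, the first enzyme of steroid synthesis, had 4.04 in A/J-12SM and 5.98 in A/J fat and was named after its value was seen. Cyp51, an enzyme of cholesterol synthesis, had 6.46 in A/J-12SM and 7.39 in A/J fat. All 12 germ cell markers measured and all 3 Leydig cell markers measured were lower in A/J-12SM fat, with medians of -1.71 and -1.05. Of the germ cell markers, 5 reached a level of 6, all on the A/J array alone. Leydig cell markers did not exceed a level of 4.82 in A/J-12SM or 5.15 in A/J fat. The members of families 1 to 4 had a median of 0.30 and a lowest difference of -0.91. The part of these markers in the P450 levels was not tested here.

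Genes that work with P450 enzymes were set beside them. Of 17 genes of redox partners and haem, 15 were measured, and the gene of P450 oxidoreductase was not among the 15. None of the 15 was above 0.75, and Hmox1, the haem oxygenase, was the sole one below -0.75 (7.88 in A/J-12SM and 8.95 in A/J fat). The median was 0.08, with the electron donor Cyb5a at 0.40 and Alas1, the first enzyme of haem synthesis, at -0.20, both named after their values were seen. Of 34 regulators of P450 genes, 31 were measured, and none was past the limits in either direction. Their median was 0.18, with Pparg at 0.32 and the glucocorticoid receptor gene Nr3c1 at 0.39. The receptor genes Nr1i2 (PXR) and Nr1i3 (CAR), named after their values were seen, were at 3.26 and 3.59 in A/J-12SM and at 2.81 and 3.46 in A/J fat. Ahr, which lies on the substituted chromosome 12 and was also named after its value was seen, had levels of 6.59 in A/J-12SM and 6.50 in A/J fat. The hepatocyte factor gene Hnf4a, also named after its value was seen, had 4.93 in A/J-12SM and 4.65 in A/J fat.

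Over all levels, the share of other enzymes of foreign compounds above 0.75 was near that of the P450 genes (23.8%). Of 43 listed genes 38 were measured, with a median of 0.25. Of the 38, 10 (26.3%) were above 0.75 and 1 (2.63%) was below -0.75, where 2.86% and 4.28% of all genes were. Of the 27 that reached 6 on the brighter array, 9 were above 0.75 and 0 below -0.75, where 2.19% and 3.91% of all such genes were. Of the 27, 23 reached 6 on both arrays. Of the 9 higher ones, Ces3a and Aox3 reached 6 on the A/J-12SM array alone, and the others did so on both. At 6 on both arrays, Cyp2e1 alone of the 10 P450 genes was above 0.75, as were 1.31% of all genes. The difference between the lists at that level was not tested. The carboxylesterase Ces3a (7.04 in A/J-12SM and 5.34 in A/J fat), the flavin monooxygenase Fmo1 (8.65 in A/J-12SM and 7.46 in A/J fat), the sulfotransferase Sult1a1 (1.20) and the aldehyde oxidase Aox3 (1.14) differed most among those that reached a level of 6. Of 24 listed enzymes of eicosanoids 23 were measured, none was above 0.75, and Hpgds (-1.14), Hpgd (-0.99) and Ptgds (-0.79), which make or degrade prostaglandins, were below -0.75. The median of that list was -0.06.

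**Figure D5:**
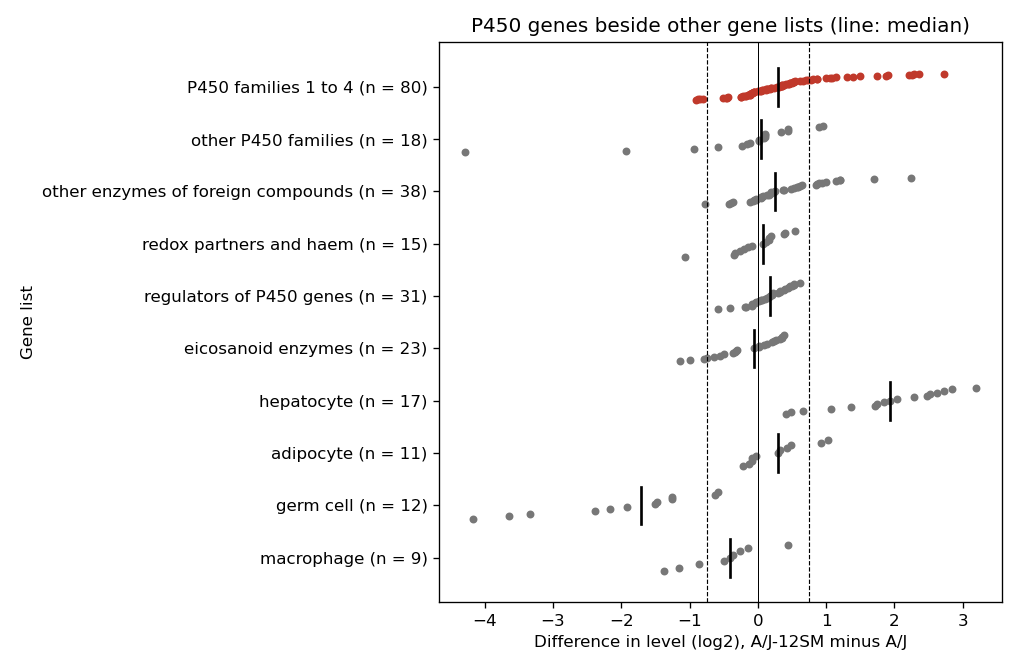
Difference in level (log2, A/J-12SM minus A/J) of each gene in the P450 families 1 to 4 (red) and in 9 other lists (grey), with a black line at the median of each list and dashed lines at 0.75 and -0.75. The medians are 0.30 for the P450 families 1 to 4, 1.94 for hepatocyte markers and -1.71 for germ cell markers.

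Markers of other cells that express P450 genes were mostly at low levels or within the limits. Club cell markers had a median of -0.22 over 4 genes, 1 of them below -0.75, and a highest level of 4.61 in A/J-12SM and 4.39 in A/J fat. Enterocyte and epididymis markers had medians of 0.29 and 0.08 and did not exceed a level of 5.08 in A/J-12SM and 4.89 in A/J fat. Endothelial markers had a median of 0.12, with none of 6 past the limits. All 6 mesothelial markers were above 0 (median 0.35, 1 above 0.75). The part of these markers in the P450 levels was not tested.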

How the data were processed

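Epididymal fat RNA of A/J-12SM and A/J mice was measured on 2 arrays, 1 per strain, which sets a limit to the precision. The authors made the deposited log2 expression values in Expression Console 1.3.0 by RMA-sketch, as the study's methods and the labels state. RMA subtracts background, forces 1 distribution on the arrays and condenses probes to probe sets, so it would remove a difference that moved most genes one way. Genome build and probe annotation are not given in the sources used here. Both sample columns were used (0 were left out).

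Probe sets were named through the platform annotation, and 23521 of 41345 named 1 gene. Others were left out, and genes with several probe sets took the one brightest on average, which concerned 3 of the 80 members. The 6 probe sets naming a member together with another gene were left out too. Chromosomes and gene order come from RefSeq (GRCm38.p6), which gave a position for all 80 members. The promoter windows are RefSeq's. A comparison of protein sequences was not made.

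The difference of a gene was its level in A/J-12SM minus that in A/J. No test was possible at 1 array a strain. Counts past 0.75 and medians are given beside those of all 22180 genes. Full values were given to members past 0.75 or reaching 6 on either array. From the 17 gene lists and the other P450 families, the rule allowed at most 4 genes past 0.75 with that level, or otherwise 2 with the highest level. Several lists have no gene named, and genes outside the rule are marked as named after their values were seen. The members and lists were chosen with earlier results of these data known. Alternatives were centring, quantile and loess (span 0.3) scaling, the mean over probe sets, updated symbols, thresholds of 1.0 and 0.5, minimum levels of 5, 6 and 7, the mean in place of the median, and leaving out pseudogene symbols. A minimum level of 6 on both arrays was added after seeing the data. The scripts were tested on simulated data. Python 3.11.15, pandas 2.3.3, NumPy 2.4.6, statsmodels 0.14.6 and matplotlib 3.10.9 were used.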

Additional observations from a re-analysis of the deposited data

Results flagged for a closer look

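Of the 6 probe sets that name a gene of these families together with another gene, and that the comparisons above do not use, 4 were more than 0.75 higher on the A/J-12SM array than on the A/J array. A probe set shared by 2 Cyp2c genes differed by 2.05, with levels of 5.35 in A/J-12SM and 3.31 in A/J fat. A pair of probe sets, each shared by 2 Cyp4a genes, differed by 1.24 and 0.91, with levels of 4.13 and 2.66 in A/J-12SM and 2.90 and 1.75 in A/J fat. A probe set shared by the Cyp4v gene and a gene outside families 1 to 4 differed by 1.04, with levels of 5.38 in A/J-12SM and 4.34 in A/J fat. The probe set that names Cyp4v3 alone had 9.60 in A/J-12SM and 9.70 in A/J fat, a difference of -0.10. No level of the 6 shared probe sets exceeded 5.38 in A/J-12SM or 4.34 in A/J fat. Among all genes below 6 on both arrays, 3.29% were above 0.75. None of the 6 was lower in A/J-12SM fat, and with 1 array per strain none of these differences has an error.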

How the results depend on the processing

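Against 19 members above 0.75, 4 below -0.75 and a median of 0.30, centring, quantile scaling, loess scaling, the mean over probe sets and updated symbols gave 17 to 19 above, 3 or 4 below and medians of 0.21 to 0.30. Under these 5 settings the 30 genes past 0.75 or at a level of 6 kept the sign of their differences in all 150 values. Many of these values could not change. Updated symbols differed for 0 members, and the mean over probe sets can alter only the 3 members with several probe sets. That mean lowered the difference of Cyp2c29 from 1.90 to 0.90 and that of Cyp2f2 from 2.26 to 1.77. With the mean over probe sets, 1 member with a level of 6 was below -0.75 in place of 2, since Cyp2c55 was inside the limit. At a threshold of 1.0, 15 members were above and 0 below, and 0 with a level of 6 were below. Where 5, 6 or 7 had to be reached on the brighter array, 9, 5 and 3 members were above 0.75, and at 6 and 7, 2 were below -0.75. At a minimum of 5 the median of the members was 0.45, and as a mean over all members the difference was 0.42. With a level of 6 on both arrays, 1 member was above, 2 were below and the median was 0.03. A minimum on the brighter array lets genes enter through the array where they are high, so counts and medians under it support no excess. The subfamily medians that follow have that minimum and rest on few genes. At a minimum of 5 they were 1.90 for Cyp2c, 1.10 for Cyp2d and -0.17 for Cyp4f (0.04 without a minimum, and -0.05 with loess scaling). The 1.90 is the value of Cyp2c29, whose second probe set differed by -0.10. At 6 the medians were 0.74 for Cyp2c, 1.08 for Cyp2d and 0.12 for Cyp2j (-0.08 without a minimum). At 7 the median of Cyp2c was that of Cyp2c55 alone, -0.81. Cyp3a and Cyp4a had no member at a level of 5, so they have no value there. No paired analysis was possible because each strain has 1 array. Low levels cannot be separated from background.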
